A study of Mus musculus with 12 samples.

Results

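The TAM receptors Tyro3, Axl and Mertk and their 2 ligands Gas6 and Pros1 were followed through the 12 arrays of a study of cultured mouse embryonic fibroblasts (MEFs), mesenchymal cells of the embryo. These 5 genes, of 20660 genes with a named feature and 15445 genes that were measured well enough to test, were found through the RefSeq accession that each array feature carries. They were read by 6 features, 1 each for Gas6, Pros1, Axl and Mertk and 2 for Tyro3, and all 6 lay well above background on all 12 arrays. The family was selected on its levels in these same samples. Its levels and differences are therefore given as a description, with no test, and tests are given only for other genes.

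The 4 groups were GADD34ΔC/ΔC cells (written ΔC) transfected with poly(I:C), untreated ΔC cells, wild-type (WT) cells transfected with poly(I:C) and untreated WT cells, with 3 arrays each from separate experiments. GADD34, the product of Ppp1r15a, directs a protein phosphatase to eIF2α and so lets translation resume after stress. Poly(I:C), a synthetic mimic of viral double-stranded RNA, was of high molecular weight and was given with a lipid reagent at 2.5 µg/ml for 6 h, and no sample given the lipid alone was analysed here. The labels give no age of the embryos, and do not say whether the cells were primary or a line, how many embryos or clones stand behind each genotype, or which part of the gene was deleted.

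Gas6 and protein S (Pros1) are secreted proteins whose N-terminal domain is carboxylated on glutamates in a vitamin K-dependent reaction. In that form they bind phosphatidylserine on the surface of dying cells, and with their C-terminal domains they bind the TAM receptor tyrosine kinases, so that the ligand forms a bridge between a dying cell and the cell that takes it up. Gas6 is known to bind all TAM receptors, whereas protein S acts mainly on Tyro3 and Mertk. In macrophages and dendritic cells TAM signalling is known to dampen interferon and Toll-like receptor responses through the inhibitors Socs1 and Socs3. Gas6 owes its name, growth arrest-specific, to fibroblasts that had stopped dividing, and Axl is the TAM receptor best known in fibroblasts.

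The stretches upstream of Gas6, Mertk and Pros1 are shown because these were the members with the largest differences between the genotypes, Gas6 and Mertk higher and Pros1 lower in ΔC cells. Each is the 250 bases before the transcript start that the RefSeq promoter table gives on GRCm38.p6, 5′ to 3′ on the gene's own strand, in lower case with matches to the searched motifs in capitals. The Gas6 stretch lies on the minus strand at chr8:13494536-13494785, and those of Mertk and Pros1 lie on the plus strand at chr2:128698665-128698914 and chr16:62854057-62854306.
Gas6: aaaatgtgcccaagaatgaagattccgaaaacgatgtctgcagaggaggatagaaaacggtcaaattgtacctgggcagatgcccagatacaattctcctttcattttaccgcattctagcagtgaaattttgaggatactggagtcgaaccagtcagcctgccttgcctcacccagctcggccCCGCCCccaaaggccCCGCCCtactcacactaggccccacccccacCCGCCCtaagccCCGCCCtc
Mertk: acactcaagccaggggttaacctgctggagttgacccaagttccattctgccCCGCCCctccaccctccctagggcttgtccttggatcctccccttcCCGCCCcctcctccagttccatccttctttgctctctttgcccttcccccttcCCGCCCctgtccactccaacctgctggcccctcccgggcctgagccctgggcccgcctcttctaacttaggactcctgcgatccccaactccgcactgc
Pros1: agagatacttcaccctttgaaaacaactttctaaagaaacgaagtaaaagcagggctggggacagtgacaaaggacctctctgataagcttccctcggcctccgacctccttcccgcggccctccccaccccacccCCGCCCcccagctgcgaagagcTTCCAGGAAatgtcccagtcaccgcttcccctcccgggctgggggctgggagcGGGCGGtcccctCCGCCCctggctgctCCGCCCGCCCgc
Both strands were searched for 6 motifs: the GC box GGGCGG, the gamma-activated GAS element TTCNNNGAA, an ISRE-like element (GAAA and again GAAA, with 2 bases between), the AP-1 element TGANTCA, the ATF4-CHOP element TGATGNAA and the TATA box TATAAA. The capitals mark 4 GC boxes upstream of Gas6, 3 upstream of Mertk, and 5 GC boxes, the last 2 overlapping, and 1 GAS element upstream of Pros1. The table's stretch for Axl held 1 GC box and that for Tyro3 held 3, and these windows lie mostly or wholly inside the gene's longest annotated span. A GC box was present in 32.7% of 32851 mouse promoters of this length, and a GAS element in 7.02%. No match to the ISRE-like, AP-1, ATF4-CHOP or TATA box letters was present in the 5 windows, and these were found in 2.98%, 6.75%, 3.45% and 12.4% of all promoters. The G and C share was 54.8% for Gas6, 63.6% for Mertk, 64.4% for Pros1, 60.0% for Axl and 73.2% for Tyro3, against a median of 52.4% over all promoters.

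Levels are log2 intensities of a feature relative to the 75th percentile of its array, so that 0 is the 75th percentile and 1 unit is a 2-fold difference. They compare one feature between arrays and not one gene with another. Between 60.4 and 67.3% of all features lay well above background on each array. The feature of Ppp1r15a was well above background on 1 of 3 ΔC poly(I:C) arrays and on 0 of 3 untreated ΔC arrays, whereas it averaged 5.81 ± 0.02 in WT cells with poly(I:C) and 2.88 ± 0.42 in untreated WT cells (SD, n = 3). That feature read at least 486-fold lower in untreated ΔC cells than in untreated WT cells, and whether it lies inside the deleted part is not known. Of 12 fibroblast markers, 10 or 11 were well above background on all 3 arrays of each group, and Lum was on 0 arrays. Their summed level (in multiples of the array's 75th percentile) was 398 to 730 in ΔC cells with poly(I:C), 401 to 739 in untreated ΔC cells, 872 to 1015 in WT cells with poly(I:C) and 1069 to 1231 in untreated WT cells. Of 7 epithelial markers, Epcam and Cdh1 were well above background on all arrays of ΔC cells and on 0 arrays of WT cells, Krt8 on 2 of 3 ΔC poly(I:C), 1 of 3 untreated ΔC and all WT arrays, and the other 4 on all 12 arrays. Their summed level overlapped between the genotypes, at 1.55 to 3.31 in ΔC cells with poly(I:C) against 0.748 to 4.11 in WT cells with poly(I:C), and at 1.89 to 3.81 in untreated ΔC cells against 0.661 to 5.00 in untreated WT cells. Of 6 muscle markers only Des was on all ΔC arrays and on 0 WT arrays. Of the defining factors, Myog and Myf5 were on 0 of 12 arrays. Myod1 was on 2 of 3 untreated ΔC and 2 of 3 untreated WT arrays and on 0 arrays with poly(I:C). Of 11 macrophage markers measured, 5 to 7 were well above background on all 3 arrays of a group. Ptprc, Adgre1, Csf1r, Itgam and Cd14 were on all 12 arrays, and the myeloid markers Lyz2 and Spi1 were on 0. Aif1 was on 3 of 3 ΔC poly(I:C) arrays, 2 of 3 untreated ΔC arrays and 0 WT arrays. The 4 arrays numbered 3 stood apart from the other 8 on the third principal component (8.52% of the variance), at 24.3 to 45.5 against -31.0 to -2.08.

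Among the ligands, Gas6 was the member with the largest difference between the genotypes. Its processed intensity was 15305, 16142 and 8148 in ΔC cells with poly(I:C) and 22795, 25976 and 12244 in untreated ΔC cells. In WT cells it was 40.1, 25.4 and 155 with poly(I:C) and 50.0, 58.4 and 166 without. Every ΔC array therefore read above every WT array, in both conditions. Scaled to each array, Gas6 averaged 3.94 ± 0.53 in ΔC cells with poly(I:C) against -3.67 ± 1.27 in WT cells with poly(I:C) (SD, n = 3 each), a log2 difference of 7.61 ± 0.66 (SE) or 196-fold. Without poly(I:C) it averaged 4.49 ± 0.51 in ΔC cells and -3.18 ± 1.06 in WT cells, a log2 difference of 7.66 ± 0.66 or 203-fold. Genes well above background on all 3 arrays of both groups were ranked, 13993 with poly(I:C) and 14060 without. Only 1 of them in each condition differed more in the upward direction. Prxl2b, well above background on 1 of 3 arrays in each WT group, was not ranked. Its fitted log2 differences, which rest partly on background readings, were larger, at 9.05 with poly(I:C) and 9.74 without. On bulk RNA, a change in the share of cells that hold a transcript cannot be told apart from a change in the amount per cell.

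The Gas6 difference was not of one size across the experiments. Between arrays of the same number it was 293-fold, 531-fold and 48.0-fold with poly(I:C), and 417-fold, 342-fold and 58.3-fold without. The arrays numbered 3 read lower than the other 2 in both ΔC groups, by 0.91 and 0.88 on the log2 scale, and higher in both WT groups, by 2.13 and 1.81. Without those 4 arrays the difference was 395-fold with poly(I:C) and 378-fold without. Leaving out only the WT poly(I:C) array numbered 3 gave 320-fold, and leaving out only the untreated WT array numbered 3 gave 308-fold. The only slide with poly(I:C) arrays of both genotypes, 1 array each, gave a log2 difference of 8.20, and the only slide with untreated arrays of both gave 8.42. Neither slide held an array numbered 3. The part of these arrays in the size of the difference was not tested beyond these values.

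Pros1, the gene of the anticoagulant protein S, was lower in ΔC cells. Its level was -0.70, -0.96 and -0.11 in ΔC cells with poly(I:C) and 1.05, 1.00 and 0.71 in WT cells with poly(I:C). Without poly(I:C) it was -0.30, -0.51 and 0.01 in ΔC cells and 1.21, 1.68 and 0.86 in WT cells. The highest ΔC array lay below the lowest WT array in both conditions. The log2 difference was -1.51 ± 0.26 (SE) with poly(I:C) and -1.51 ± 0.26 without, or 2.85-fold and 2.86-fold lower in ΔC cells. As with Gas6, the arrays numbered 3 gave the smallest difference, 1.77-fold with poly(I:C) and 1.80-fold without, against 3.37-fold and 3.89-fold, and 2.84-fold and 4.55-fold, for the numbers 1 and 2. Among all genes so ranked, Pros1 was number 406 from the lowest of 13993 with poly(I:C) and number 287 of 14060 without. The 2 ligands thus differed between the genotypes in opposite directions.

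**Figure D1:**
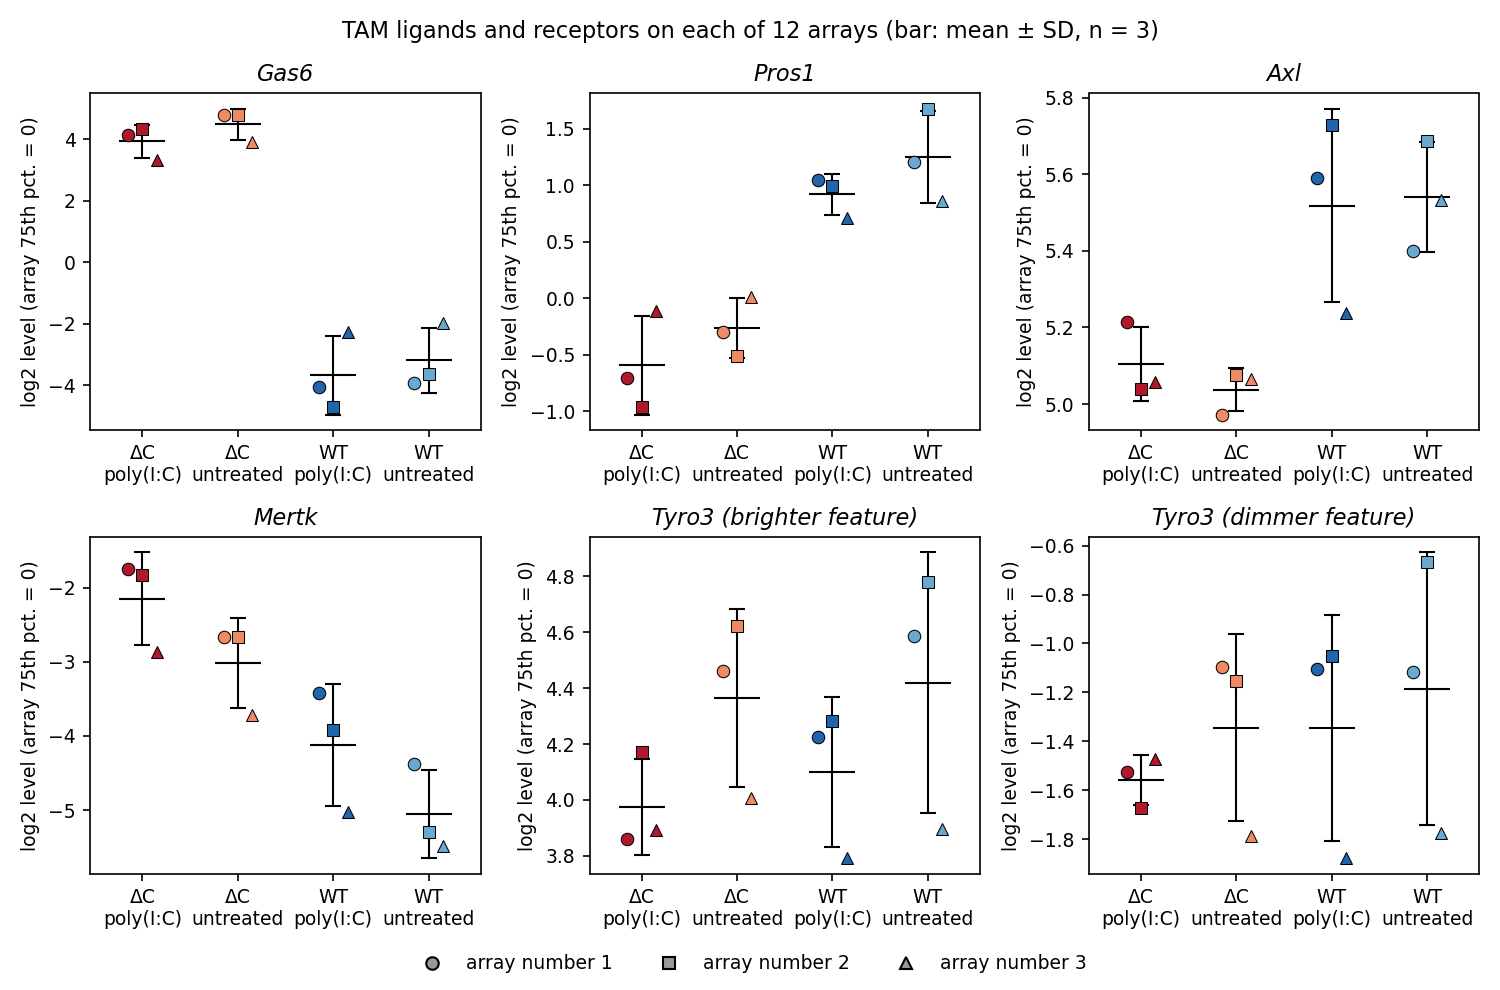
Level of each TAM ligand and receptor on each of the 12 arrays (log2 intensity relative to the array's 75th percentile, a separate vertical scale in each panel), with ΔC poly(I:C), ΔC untreated, WT poly(I:C) and WT untreated from left to right. Marker shape gives the array number, and horizontal bars with whiskers give the mean ± SD of 3 arrays. Gas6 and Mertk lie higher and Pros1 and Axl lower in ΔC than in WT cells, while the Tyro3 groups overlap.

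Axl, a receptor that is bound by Gas6 and is shed from the cell surface by proteases, was slightly lower in ΔC cells. Its level was 5.22, 5.04 and 5.06 in ΔC cells with poly(I:C) and 5.59, 5.73 and 5.24 in WT cells with poly(I:C). It was 4.97, 5.08 and 5.07 in untreated ΔC cells and 5.40, 5.69 and 5.53 in untreated WT cells. The groups did not overlap in either condition, although with poly(I:C) the highest ΔC array and the lowest WT array were close. The log2 difference was -0.41 ± 0.14 (SE) with poly(I:C) and -0.50 ± 0.14 without, or 1.33-fold and 1.42-fold lower in ΔC cells. Axl varied least of the members, with a pooled SD within groups of 0.16 on the log2 scale against a median of 0.25 over all genes.

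Mertk, the TAM receptor best known for the uptake of dying cells by macrophages and of photoreceptor tips by the retinal pigment epithelium, was higher in ΔC cells. Its processed intensity was 258, 225 and 111 in ΔC cells with poly(I:C) and 62.3, 43.8 and 22.6 in WT cells with poly(I:C). Without poly(I:C) it was 131, 150 and 62.5 in ΔC cells and 36.6, 18.4 and 14.4 in WT cells. Its level was -2.15 ± 0.62 in ΔC cells with poly(I:C) and -4.12 ± 0.82 in WT cells with poly(I:C), a log2 difference of 1.98 ± 0.49 (SE) or 3.93-fold. Without poly(I:C) the levels were -3.01 ± 0.61 in ΔC cells and -5.05 ± 0.60 in WT cells, a log2 difference of 2.04 ± 0.49 or 4.12-fold. Every ΔC array lay above every WT array of its condition, and the difference by number was 3.18-fold to 4.47-fold with poly(I:C) and 3.28-fold to 6.24-fold without.

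The Mertk feature was dim in WT cells. On untreated WT arrays it lay at -4.37, -5.30 and -5.49, and the lowest signal well above background on these arrays was -5.98, -5.94 and -5.95. With a background correction by normexp and an added offset of 50, the log2 difference was 1.15 with poly(I:C) and 0.78 without. An offset added to dim readings narrows their differences by itself, so the part of the background cannot be read from these values. The summed level of the macrophage markers was lower in ΔC cells, at 10.9 to 13.3 in ΔC cells with poly(I:C) and 14.4 to 16.8 in WT cells with poly(I:C), and 10.0 to 13.0 in untreated ΔC cells and 19.8 to 23.7 in untreated WT cells. Among these markers Aif1 and, on 1 array, Tyrobp went the other way, being well above background on ΔC arrays only. The part of the markers of other cell types, and of the fibroblast markers, in the differences between the genotypes was not tested.

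Tyro3, the TAM receptor best known in brain and testis, did not separate the genotypes. Its brighter feature averaged 3.97 ± 0.17 in ΔC cells with poly(I:C) and 4.10 ± 0.27 in WT cells with poly(I:C), with overlapping groups and a log2 difference of -0.12 ± 0.25 (SE). In untreated cells it averaged 4.36 ± 0.32 in ΔC and 4.42 ± 0.47 in WT, again with overlapping groups and a difference of -0.06 ± 0.25. The 95% interval of that difference, -0.61 to 0.50, runs from 0.656-fold to 1.41-fold. The groups of the dimmer feature also overlapped, at -1.56 and -1.34 in ΔC and WT cells with poly(I:C) and at -1.34 and -1.19 in untreated ΔC and WT cells.

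In count, 2 of the 5 members (Gas6 and Mertk) were higher and 2 (Pros1 and Axl) were lower in ΔC cells with groups that did not overlap, in both conditions. Over all 15445 genes, groups did not overlap in 40.6% between the genotypes with poly(I:C) and in 37.2% without. Genotype differences of this kind were thus common on these arrays, and nothing is read from the members' count because the family was chosen on these values.

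**Figure D2:**
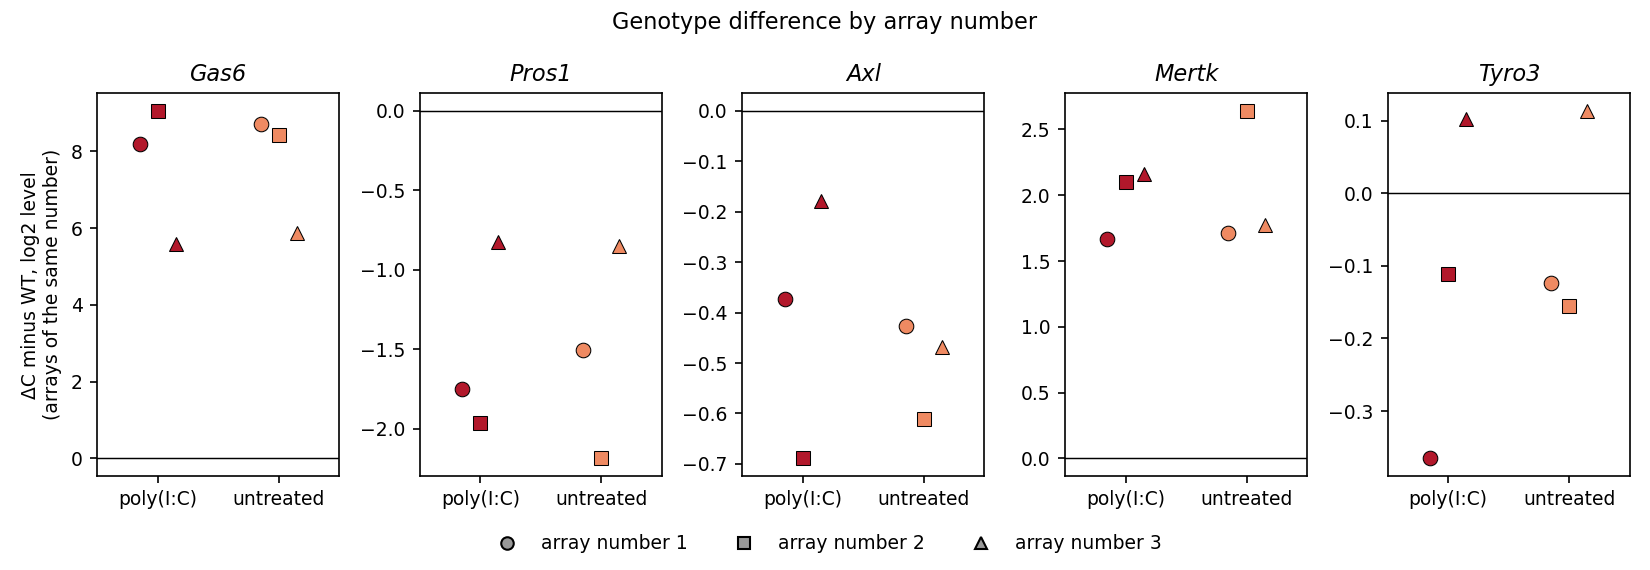
Difference in log2 level, ΔC minus WT, between arrays of the same number, for cells with poly(I:C) (left in each panel) and untreated cells (right), with a separate vertical scale for each gene and a line at 0. Marker shape gives the array number. The arrays numbered 3 give the smallest Gas6 and Pros1 differences in both conditions, and for Mertk the 3 numbers lie between 1.67 and 2.64.

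The response to poly(I:C) was small beside the genotype difference for Gas6, Pros1 and Axl. For all 5 members the poly(I:C) and untreated groups overlapped in ΔC cells and in WT cells, whereas over all genes 17.7% did not overlap in ΔC cells and 30.6% did not in WT cells. Mertk was the member with the largest response: it was 0.86 ± 0.49 higher with poly(I:C) than without in ΔC cells and 0.93 ± 0.49 higher in WT cells (log2 difference ± SE), or 1.82-fold and 1.91-fold. It was higher with poly(I:C) in 3 of 3 pairs of the same number in each genotype, by 0.91, 0.84 and 0.85 in ΔC cells and by 0.95, 1.38 and 0.46 in WT cells. With normexp and its offset of 50, which narrows differences of dim features, the response in WT cells was 0.24.

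The ligands leaned the other way. Gas6 was lower with poly(I:C) by 0.55 ± 0.66 in ΔC cells and by 0.50 ± 0.66 in WT cells (log2 ± SE), and Pros1 by 0.33 ± 0.26 in each genotype. The brighter Tyro3 feature was lower by 0.39 ± 0.25 in ΔC cells and by 0.32 ± 0.25 in WT cells. Gas6, Pros1 and the brighter Tyro3 feature were lower with poly(I:C) in 3 of 3 numbered pairs of both genotypes, and the dimmer Tyro3 feature in 2 of 3 of each. The median response over all genes was itself below 0, at -0.05 in ΔC cells and -0.14 in WT cells. From the lowest, Pros1 and Tyro3 were numbers 1819 and 1274 of 14295 ranked genes in ΔC cells. In WT cells they were numbers 3643 and 3822 of 14108. Without the untreated WT array numbered 3, however, the Gas6 response in WT cells was 0.11, and without the WT poly(I:C) array numbered 3 it was -1.21. Axl differed by 0.07 ± 0.14 in ΔC cells and by -0.02 ± 0.14 in WT cells, with pairs in both directions.

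The fitted responses of the 2 genotypes were close, and the intervals of their difference were wide. That difference between the genotypes, ΔC minus WT, was -0.05 ± 0.93 for Gas6, 0.00 ± 0.37 for Pros1, 0.09 ± 0.20 for Axl, -0.07 ± 0.69 for Mertk and -0.07 ± 0.35 for Tyro3 (log2 ± SE). The interval for Mertk, -1.61 to 1.48, holds differences as large as the Mertk response itself. For the interferon gene Ifnb1, a marker of the treatment, the level with poly(I:C) was 5.15 ± 0.15 in ΔC cells and 6.31 ± 0.65 in WT cells (SD, n = 3 each), and in WT cells it was at least 4930-fold higher than without poly(I:C).

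**Figure D3:**
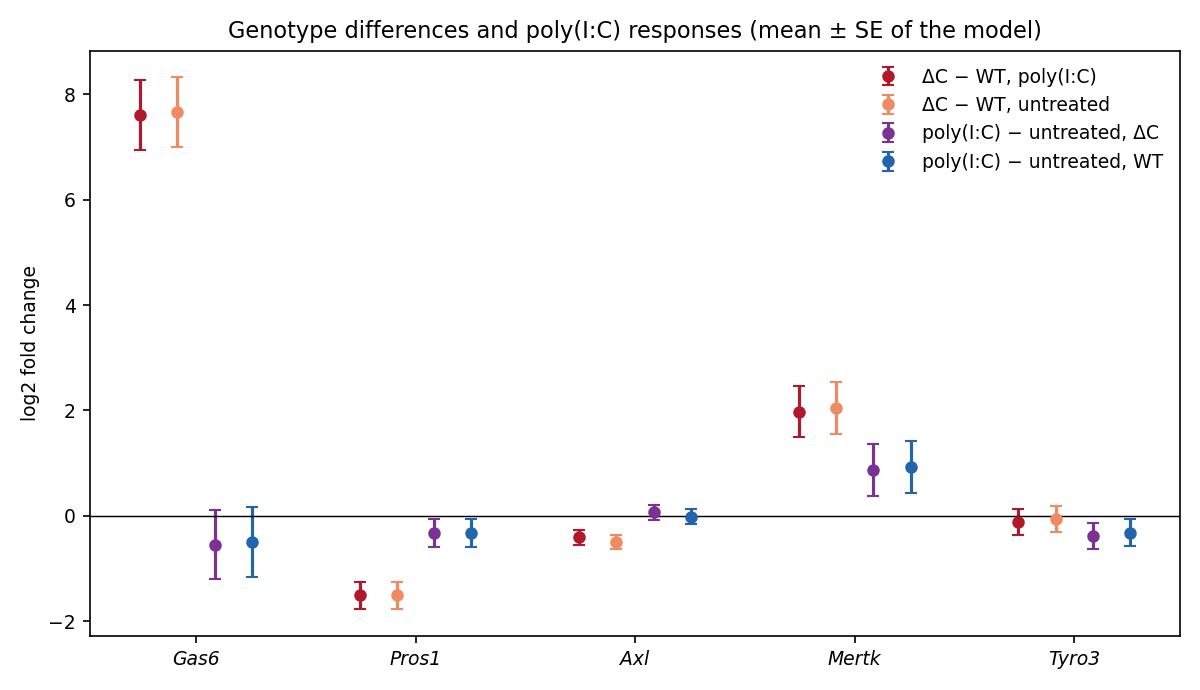
Log2 fold change (vertical axis, mean ± SE of the model over 12 arrays) of each TAM gene between the genotypes, with poly(I:C) and untreated, and between poly(I:C) and untreated cells of each genotype. Gas6 differs by 7.61 and 7.66 between the genotypes, and Mertk is the member with the largest response, 0.86 in ΔC and 0.93 in WT cells.

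Other genes of the pathway were taken from 4 lists, chosen with earlier results of these data known: carboxylation and Gla proteins, other TAM ligands with shedding and signalling partners, phosphatidylserine exposure and recognition, and other receptor tyrosine kinases. Of 105 listed genes 86 were tested with limma, with Benjamini-Hochberg adjustment over all 15445 genes and calls at an adjusted p under 0.05. Between ΔC and WT cells with poly(I:C), 10 of the 86 rose and 8 fell, 11.6% and 9.30%, against 11.9% and 9.04% of all genes. Between untreated ΔC and WT cells 8 rose and 12 fell, shares of 9.30% and 14.0%, against 10.9% and 10.2% of all genes. These shares are near those of all genes. The median log2 difference of the 86 was 0.01 with poly(I:C) and -0.10 without, against 0.01 and -0.06 over all genes. The split of the calls moved with the scaling: with each array scaled to its median 5 rose and 9 fell with poly(I:C) and 6 rose and 6 fell without, and with quantile normalization 10 rose and 9 fell without. Over all genes, 1837 rose and 1396 fell with poly(I:C) and 1686 rose and 1581 fell without, and with the median scaling, which moved the median of all genes by more than 0.1 with poly(I:C) (to -0.14), these were 999 and 1179, and 1264 and 696.

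Of 11 genes tested for carboxylating enzymes and other Gla proteins, 2 rose with poly(I:C) and 1 without, and 0 fell. Over all genes 11.9% rose and 9.04% fell with poly(I:C), and 10.9% and 10.2% without. Vkorc1, the vitamin K epoxide reductase that feeds the carboxylase, rose in ΔC cells with poly(I:C) (log2 difference 0.53 ± 0.14, adjusted p = 0.0219). Its level was 4.43, 4.24 and 4.32 in ΔC cells and 3.79, 3.88 and 3.72 in WT cells, with no overlap. Prrg4, a transmembrane Gla protein, rose by 0.88 ± 0.23 with poly(I:C) (adjusted p = 0.0235) and by 1.00 ± 0.23 without (adjusted p = 0.0135).

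Of 23 genes for other ligands, shedding and signalling, 0 rose and 6 fell in ΔC cells with poly(I:C), and 1 rose and 5 fell in untreated ΔC cells. Their median log2 difference was -0.17 with poly(I:C) and -0.15 without. Over all genes 11.9% rose and 9.04% fell with poly(I:C), and 10.9% and 10.2% without. Whether the split of this list moves with the scaling was not tested. Lgals3, or galectin-3, a ligand reported for Mertk, fell by 0.73 with poly(I:C) (adjusted p = 0.0065) and by 0.87 without (adjusted p = 0.0026). Adam17, a protease that sheds Mertk, fell by 0.78 (adjusted p = 0.00127) and by 0.58 (adjusted p = 0.0058). Its level was -2.69, -2.88 and -2.66 in ΔC cells and -1.90, -2.05 and -1.93 in WT cells with poly(I:C).

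The inhibitors Socs1 and Socs3, through which TAM receptors are known to act on cytokine signalling, were both lower in ΔC cells with poly(I:C). Socs1 was at 2.55, 2.62 and 1.96 in ΔC cells and at 4.35, 4.38 and 3.88 in WT cells, and fell by 1.83 ± 0.34 (adjusted p = 0.0048, and 0.0944 with the slide as a block). Socs3 averaged 2.45 ± 0.12 in ΔC cells with poly(I:C) and 3.34 ± 0.19 in WT cells with poly(I:C), and fell by 0.89 ± 0.17 (adjusted p = 0.00453). It was also lower in untreated ΔC cells, by 0.55 ± 0.17 (adjusted p = 0.0389). Twist1 and Twist2 encode transcription factors of mesenchymal cells that Axl is known to induce in macrophages. Twist1 fell by 1.22 ± 0.34 with poly(I:C) (adjusted p = 0.0283), and Twist2 rose by 0.65 ± 0.19 without (adjusted p = 0.0374). The receptor subunit Ifnar1, which pairs with TAM receptors in dendritic cells, differed by 0.41 ± 0.15 with poly(I:C) and did not pass (adjusted p = 0.0737). Tns2, an adaptor that binds Axl, fell by 0.82 ± 0.21 in untreated ΔC cells (adjusted p = 0.02).

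Among 23 genes for the exposure and recognition of phosphatidylserine, the lipid that TAM ligands bind, 2 rose and 2 fell with poly(I:C), and 1 rose and 4 fell without. The shares over all genes were 11.9% and 9.04% with poly(I:C), and 10.9% and 10.2% without. Atp11a, a flippase that moves the lipid to the inner face of the membrane, rose by 0.59 ± 0.18 in ΔC cells with poly(I:C) (adjusted p = 0.0367). Itgb3, an integrin subunit that binds the phosphatidylserine bridge Mfge8, rose by 1.85 ± 0.43 in untreated ΔC cells (adjusted p = 0.0137). Cd300lb, a phosphatidylserine receptor of myeloid cells, fell by 2.46 ± 0.34 in untreated ΔC cells (adjusted p = 0.000822), with levels of -3.62, -3.82 and -3.84 in ΔC cells and -0.99, -1.07 and -1.84 in WT cells. Anxa1, an annexin that binds the lipid, fell by 0.56 ± 0.12 with poly(I:C) (adjusted p = 0.00789) and by 0.38 ± 0.12 without (adjusted p = 0.0418). Elmo1, an adaptor of engulfment, was well above background on 3 of 3 arrays of ΔC cells with poly(I:C) and on 0 arrays of the other groups. It was at least 2.08-fold higher in ΔC than in WT cells with poly(I:C). Elmo1 entered the tests only through the group in which it was high. Its call, counted among the 2 rises, is therefore no support for the difference, and no p is given for it.

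Of 29 other receptor tyrosine kinases tested, 6 rose and 0 fell in ΔC cells with poly(I:C), and 5 rose and 3 fell without. Their median log2 difference was 0.08 with poly(I:C) and -0.10 without. Over all genes 11.9% rose and 9.04% fell with poly(I:C), and 10.9% and 10.2% without. Whether the split of this list moves with the scaling was not tested. Epha4, an ephrin receptor, rose by 3.78 ± 0.45 with poly(I:C) (adjusted p = 0.000384) and by 3.07 ± 0.45 without (adjusted p = 0.00121). On WT arrays with poly(I:C) it was well above background on 1 of 3 arrays, so that the first value rests partly on background readings. Ephb4 rose by 1.09 ± 0.16 with poly(I:C) (adjusted p = 0.00128) and by 0.84 ± 0.16 without (adjusted p = 0.00477), and Igf1r, the receptor of insulin-like growth factor 1, by 0.70 ± 0.15 (adjusted p = 0.00827) and 0.80 ± 0.15 (adjusted p = 0.00418). Mst1r, a receptor of macrophage-stimulating protein, was well above background on 0 WT arrays. It was at least 2.96-fold higher in ΔC cells with poly(I:C) and at least 4.44-fold higher without. Mst1r entered the tests only through the ΔC groups, in which it was high. Its calls, counted among the 6 rises with poly(I:C) and the 5 without, are therefore no support, and no p is given for them.

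Falls among the receptor kinases passed the threshold only in untreated cells, for Pdgfrb, Csf1r and Ntrk3. With poly(I:C) these genes were also lower in ΔC cells but did not pass. Their log2 differences there were -1.28 ± 0.45 for Pdgfrb (limma adjusted p = 0.0674) and -0.80 ± 0.26 for Csf1r (adjusted p = 0.0521). For Ntrk3 it was -1.51 ± 0.65 (adjusted p = 0.129), resting partly on background readings. Pdgfrb, the receptor of platelet-derived growth factor that marks mesenchymal cells, was at 0.44, -0.41 and 0.30 in untreated ΔC cells and at 2.43, 2.34 and 1.24 in untreated WT cells, and fell by 1.89 ± 0.45 (adjusted p = 0.0145). Csf1r, the receptor of colony-stimulating factor 1, fell by 1.19 ± 0.26 (adjusted p = 0.00968). Ntrk3, a neurotrophin receptor, fell by 2.28 ± 0.65 (adjusted p = 0.0318), with 1 of 3 untreated ΔC arrays well above background. Without that group's array numbered 3 it fell by 3.15. With the slide as a block, 6 of the 86 list genes were called with poly(I:C) and 3 without, among them Epha4 in both conditions, Ephb4 with poly(I:C) and Cd300lb without. Losses of a call over 25 alternative settings were counted for most of the genotype calls above. They were not counted for Socs3, Elmo1 and Mst1r, or for Lgals3 and Adam17 with poly(I:C). Among the calls so followed, those lost most often were Anxa1 (19), Twist2 (13), Tns2 (8) and Ntrk3 (8) in untreated cells. With poly(I:C) they were Atp11a (14), Prrg4 (10) and Twist1 (9).

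**Figure D4:**
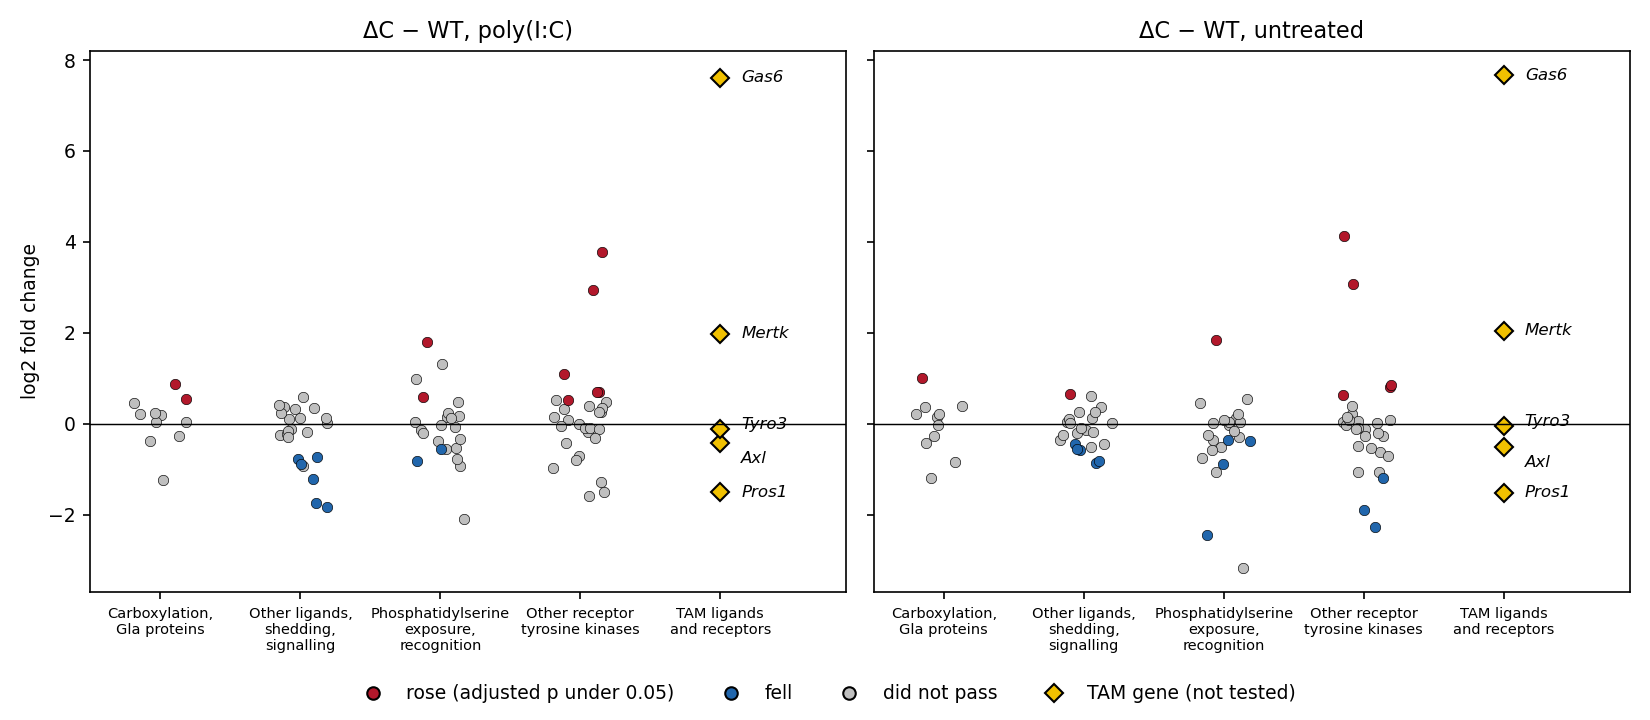
Log2 fold change of ΔC over WT cells (vertical axis) for each tested gene of the 4 lists, with poly(I:C) (left panel) and untreated (right panel). Red points rose and blue points fell at an adjusted p under 0.05 (limma), grey points did not pass, and yellow diamonds are the TAM genes, which were not tested. Values are as fitted, so that those of Mst1r and Elmo1 rest on background readings in WT cells. Gas6, at 7.61 and 7.66, lies above all genes of the lists in both panels.

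In the response to poly(I:C), 1 of the 86 list genes rose and 0 fell in ΔC cells, against 1.82% and 0.0194% of all genes, and 3 rose and 0 fell in WT cells, against 5.24% and 1.53% of all genes. An unadjusted limma p under 0.05 was found for 16 of the 86 in ΔC cells and 25 in WT cells. Over all 15445 genes it was found for 1682 and 4050. Socs1 rose by 3.07 ± 0.34 in WT cells (adjusted p = 0.000491). Plscr1, a phospholipid scramblase induced by interferon, rose by 1.72 ± 0.31 in WT cells (adjusted p = 0.00908). With the slide as a block neither Socs1 nor Plscr1 passed in WT cells (adjusted p = 0.0704 and 0.137). Among the carboxylation genes, of which 0 were called, the largest changes were those of the clotting factor F10 (0.67 ± 0.38, adjusted p = 0.556) and protein C, Proc (-0.46 ± 0.20, adjusted p = 0.451), in ΔC cells, and of F9 (-0.56 ± 0.28, adjusted p = 0.236) and Prrg2 (-0.50 ± 0.19, adjusted p = 0.138) in WT cells. Limma called 0 of the 23 phosphatidylserine genes in ΔC cells, where Stab2, a scavenger receptor, differed by 1.79 ± 0.60 (adjusted p = 0.292). None of the 29 other receptor kinases tested was called in either response by limma, where 4 in ΔC cells and 8 in WT cells had an unadjusted p under 0.05. The 2 of them with the largest changes were Alk (0.86 ± 0.38, adjusted p = 0.448) and Mst1r (-0.80 ± 0.37, adjusted p = 0.465) in ΔC cells, and Pdgfrb (-1.21 ± 0.45, adjusted p = 0.125) and Epha4 (-1.05 ± 0.45, adjusted p = 0.171) in WT cells.

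For the difference between the responses 0 of the 86 list genes were called by limma, and over all genes 0.00647% were called higher and 0.0129% lower. An unadjusted limma p under 0.05 was found for 7 of the 86, against 836 of all 15445 genes. The value for Socs1, ΔC minus WT, was -1.57 ± 0.48 (adjusted p = 0.582). Among the other lists were Stab2 (2.03 ± 0.85, adjusted p = 0.875), Ntrk3 (0.77 ± 0.92, adjusted p = 0.987), F9 (0.45 ± 0.40, adjusted p = 0.987) and F10 (0.44 ± 0.53, adjusted p = 0.987). Stab2 and Ntrk3 rest partly on background readings, being well above background on 1 of 3 arrays in 2 groups each. For Elmo1 and Mst1r, well above background on 0 arrays of 3 and of 2 groups, no difference between responses is given.

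The genes whose levels followed each member most closely over the 12 arrays were found by Pearson's r, given as a description, since the arrays share 4 groups. For Gas6 they were Prxl2b (r = 0.996), Tlcd5 (0.994) and Hspb1 (0.994), and for Pros1 they were Ldah (0.988), Ier3ip1 (0.988) and Hpcal1 (0.987). Hspb1, a small heat shock protein, averaged 6.83 ± 0.41 in ΔC cells with poly(I:C), 6.93 ± 0.30 in untreated ΔC cells, 3.97 ± 0.55 in WT cells with poly(I:C) and 4.23 ± 0.51 in untreated WT cells (SD, n = 3 each). Its arrays numbered 3 were the lowest of both ΔC groups and the highest of both WT groups, as for Gas6. Mertk was followed by Pttg1ip2 (0.967), Slc25a36 (0.965) and Ccno (0.960), Axl by Gm2030 (0.972), Gm4297 (0.970) and the DNA sensor Aim2 (0.969), and Tyro3 by Rab13 (0.960), Ncapg2 (0.954) and Crot (0.952). Prxl2b was well above background on 1 of 3 arrays in each WT group, and Gm2030, Gm4297 and Aim2 on 0 of 6 ΔC arrays. Tlcd5 was well above background on 1 of 3 WT poly(I:C) arrays and on 2 of 3 untreated WT arrays.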

How the data were processed

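One-colour Agilent arrays of MEF RNA were analysed, 3 for each of 4 groups. Per the labels' protocols, cells were lysed with an NP40 buffer and RNA of the supernatant was amplified and labelled with Cy3. Per the file headers, Feature Extraction 10.7.3.1 made the deposited intensity values, background-subtracted and not normalized between arrays. A second deposited table holds log2 values, for which limma is named in the submitters' processing notes without version or steps, and its values were used as an alternative.

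Processed intensities were put on the log2 scale, the 75th percentile of each array was subtracted, and control spots and outlier spots were left out. Features were named through RefSeq accessions, which gave a name to 27235 of them. A gene was tested where 1 of its features was well above background throughout a group (3 of 3 arrays), and its brightest such feature stood for it, which gave 15445 genes. The 5 comparisons were fitted with limma 3.58.1 in R 4.3.3, with 1 mean per group over 12 arrays, two-sided, and adjusted by Benjamini-Hochberg over all genes. A feature well above background on 0 arrays of a group is given as "at least N-fold", against the lowest signal well above background of each array of that group or its own signal, whichever was higher. The number of arrays limits the precision. The fit was tested on simulated data with independent noise on each array. These held no effect of slide, scan day or array number, so that test does not cover such effects.

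The members, lists and tests were chosen with earlier results of these data known. Named were all members and, per list and comparison, the 3 largest called rises and falls among genes measured above background in each group compared, or, with none called, the 2 largest changes, and 6 fixed genes (Ppp1r15a, Ifnb1, Isg15, Socs1, Socs3 and Ifnar1); Elmo1, Mst1r and the poly(I:C) values of Lgals3 and Adam17 were added after their values were seen. Some list genes are counted but not reported here singly. Arrays of the same number, 1 to 3, were set against each other as pairs. Deviations from group means correlated at 0.115 to 0.651 between same-numbered arrays across genes. Differently numbered arrays were not so compared, so these correlations cannot show whether the numbers pair the arrays. A fit with the number as a block was an alternative. The other alternatives concerned scaling, background correction, dim features, slide, scan day, array weights and left-out arrays. Isg15 averaged 7.59 ± 0.51 in ΔC cells with poly(I:C), 3.88 ± 0.34 in untreated ΔC cells, 8.92 ± 0.51 in WT cells with poly(I:C) and 3.28 ± 0.21 in untreated WT cells. Marker lists of endothelial and skeletal muscle cells were also read: 3 of 7 endothelial markers were well above background on all 3 arrays of each group, and of 6 muscle markers 3 were in each ΔC group and 2 in each WT group.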

Additional observations from a re-analysis of the deposited data

How the results depend on the processing

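Over 25 alternatives (24 for the difference between responses) the genotype differences of Gas6, Mertk, Pros1 and Axl kept their direction in both conditions. The Gas6 log2 difference with poly(I:C) was 6.57 with normexp, 8.52 with array weights and 8.63 without the 4 arrays numbered 3, and that of Pros1 without these arrays was -1.86. Normexp, run with an offset of 50 that narrows differences of dim features, gave Mertk 1.15 with poly(I:C), 0.78 untreated and 0.24 for the WT response. The Axl difference in untreated cells was -0.34 with quantile normalization and in the authors' deposited table, with or without its doubtful column. Its WT response was 0.16 with array weights, and the difference between its responses was -0.12 with median scaling and -0.095 with array weights. The difference between the Pros1 responses was 0.35 with the slide and with the scan day as a block. The authors' deposited table, with 1 column that goes against its array, gave differences with poly(I:C) of 6.22 (Gas6), 0.82 (Mertk), -0.75 (Pros1), -0.10 (Axl) and 0.34 (Tyro3), ΔC responses of -1.98, -0.27, 0.43, 0.27 and -0.011, and differences between responses of -1.56, -1.28, 0.75, 0.25 and 0.27. In the authors' deposited table the F10 difference between responses (-0.10) turned direction.

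The number of list genes called between the genotypes with poly(I:C) (18) was 7 in the authors' deposited table, 6 with the slide as a block, 46 with array weights, 40 without the arrays numbered 3, and 11 to 23 with 1 array left out. Without poly(I:C) (20) it was 12 with median scaling, 6 in the authors' deposited table, 3 with the slide as a block, 10 with scan day as a block, 43 with array weights, 33 without the arrays numbered 3 and 10 to 24 with 1 array left out. For the ΔC response (1) it was 0 with median scaling, quantile normalization, the slide as a block and both forms of the authors' deposited table, 2 with normexp, 19 with array weights, 13 without the arrays numbered 3 and 0 to 2 with 1 array left out. For the WT response (3) it was 6 with normexp, 1 with the slide as a block, 35 with array weights, 23 without the arrays numbered 3 and 3 to 10 with 1 array left out. For the difference between responses (0) it was 7 with array weights, 4 without the arrays numbered 3 and 0 to 1 with 1 array left out. The causes were not tested. Over the named list genes that were followed through the alternatives, 893 of 1043 values kept direction and side of the threshold. Of the others, 123 lost and 26 gained the call, and 1 turned.

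With the replicate number as a block, which treats same-numbered arrays as pairs, 24 list genes were called with poly(I:C) and 29 without. In the ΔC response 1 was called, in the WT response 4, and for the difference 0. No call of a named list gene that was followed through the alternatives changed. Signal over background limits Mertk, and Gas6 in WT cells, whose features were dim there.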

Other observations

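In the authors' deposited table of log2 values, 11 of the 12 columns followed their own array's scanner values across features, and the column of the first ΔC poly(I:C) array followed its own array less closely (Spearman's rho 0.910) than it followed the first untreated WT array (0.949). In that column of the authors' deposited table Gas6 was 9.50, and it was 13.9 and 13.0 in the other ΔC poly(I:C) columns and 5.55, 5.97 and 7.49 in the untreated WT columns. Mertk was 4.37 and Pros1 11.1 in the same column of the authors' deposited table.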
